A study of Mus musculus with 19 samples.

Results

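The genes described here encode the subunits of the proteasome. They were taken as every gene whose symbol is Psma, Psmb, Psmc or Psmd followed by a number and that had a probe set naming this gene alone, which gave 38 of the 22180 genes measured. Psma5 and Psmc2 had 2 such probe sets each, and the one with the higher mean over all 19 arrays stood for the gene. Psma4 was not analysed here, because its probe sets name several genes. The 38 genes were 6 genes of the α ring, 7 constitutive genes of the β ring (3 of them catalytic), 3 catalytic genes of the immunoproteasome, 2 tissue-restricted core genes, 6 ATPases, 11 non-ATPase subunits and 3 assembly chaperones that carry a Psmd symbol.

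The proteasome degrades proteins that have been tagged with ubiquitin. Its core particle is a barrel of stacked rings: outer α rings, which gate the entrance, and inner β rings, of which 3 subunits cut the substrate. A regulatory particle caps the barrel, with a ring of ATPases that unfolds and threads substrates and non-ATPase subunits that hold ubiquitin receptors, a deubiquitinase and scaffolds. In lymphocytes the catalytic subunits Psmb5, Psmb6 and Psmb7 can be replaced during assembly by Psmb8, Psmb9 and Psmb10, which gives the immunoproteasome, known for making peptides that fit MHC class I molecules. Raptor, encoded by Rptor, is the defining subunit of the growth-promoting kinase complex mTORC1, which in other cells has been linked to the transcription of proteasome genes through the factor Nfe2l1.

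The study asked how mTORC1 signalling bears on the choice between αβ and γδ T cells. Expression was measured on arrays of sorted mouse thymocytes of strain C57BL/6 from 2 kinds of animal. Rptor-/- cells came from mice with a loxP-flanked gene (Raptorfl/fl) crossed to CD2-cre, a recombinase that is active in lymphocytes, and WT cells came from WT mice. The labels do not say whether WT mice carried the recombinase, and ages are not given. DN3a thymocytes were gated as CD4-, CD8-, TCRγδ-, TCRβ-, CD44-, CD28- and high for CD25. Immature single-positive (ISP) cells were CD4-, CD8+ and TCRβ-. The γδ T cells were gated as CD4-, CD8-, TCRβ-, NK1-1- and Gr1-, and no positive γδ marker is listed for that gate. ISP cells were run on 7 arrays, 4 of them WT and 3 Rptor-/-. DN3a cells and γδ T cells had 3 WT and 3 Rptor-/- arrays per population. The labels do not say that replicates were separate animals, so p-values measure the spread between these arrays, which may be technical.

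Values are log2 signals, and a positive difference means higher in Rptor-/- cells. Array medians lay between 3.80 and 3.88 on the 7 ISP arrays and between 6.03 and 6.13 on the other 12, so levels of ISP cells were not compared with those of the others. Differences were tested with limma over all genes, and a call means an adjusted p under 0.05. Within a group, the median SD of the 38 genes over its arrays was 0.06 to 0.09, and the small number of arrays limits what can be called. Rptor itself was lower in Rptor-/- arrays by 0.24 in ISP cells, 0.58 in DN3a cells and 0.30 in γδ T cells on the log2 scale (limma adjusted p = 0.0384, 0.0006 and 0.0489). The groups were separate in DN3a cells and γδ T cells but met in ISP cells, where Rptor-/- array 3 and WT array 3 both read 6.34. Whether the Rptor probes lie in the deleted part is not known here. In WT arrays, 5 of 5 measured DN3 markers were lower in γδ T cells than in DN3a cells (median −3.48), against 12.3% of all genes. Of the measured γδ markers 3 of 3 were higher (median 2.77), against 12.7% of all genes. Markers of mature αβ T cells (3 of 5, median 1.96) and of NK cells (3 of 4, median 0.97) were higher as well, and none of them was lower. The higher markers were thus not those of γδ T cells alone. Trdc and the γ constant genes, the defining markers of γδ T cells, were not analysed here.

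Upstream sequences are shown for the catalytic subunits that trade places, since the contrast between the constitutive and the immunoproteasome genes turns on them. They are the 250 bases before the transcription start in RefSeq on build GRCm38.p6, read 5′ to 3′ on the gene's strand; Psmb9 and Tap1 start on opposite strands 225 bases apart, so the whole stretch between their starts is given, on the strand of Tap1. Capitals mark matches on either strand to TGACNNNGC (the core of the antioxidant response element that Nfe2l1 and Nfe2l2 bind), to the CCAAT box, to the E-box sequence CACGTG or to GAAA repeated after 2 bases of any kind (the core of the interferon-stimulated response element).
Psmb5, chr14:54617996-54618245, minus strand: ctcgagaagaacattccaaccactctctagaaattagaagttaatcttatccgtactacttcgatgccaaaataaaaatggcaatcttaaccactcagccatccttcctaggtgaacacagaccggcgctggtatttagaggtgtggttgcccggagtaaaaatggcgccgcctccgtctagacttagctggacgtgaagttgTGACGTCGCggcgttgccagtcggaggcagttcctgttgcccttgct
Psmb6, chr11:70525107-70525356, plus strand: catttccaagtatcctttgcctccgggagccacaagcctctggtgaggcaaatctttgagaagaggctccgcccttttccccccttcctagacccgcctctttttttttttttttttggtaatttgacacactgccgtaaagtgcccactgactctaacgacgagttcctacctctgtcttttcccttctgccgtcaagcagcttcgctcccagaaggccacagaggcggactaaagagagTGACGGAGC
Psmb8, chr17:34197945-34198194, plus strand: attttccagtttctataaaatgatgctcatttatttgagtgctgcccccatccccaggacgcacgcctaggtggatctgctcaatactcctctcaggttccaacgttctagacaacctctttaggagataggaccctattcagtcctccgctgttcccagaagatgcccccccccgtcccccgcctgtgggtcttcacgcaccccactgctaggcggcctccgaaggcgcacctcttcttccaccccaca
Psmb10, chr8:105938393-105938642, minus strand: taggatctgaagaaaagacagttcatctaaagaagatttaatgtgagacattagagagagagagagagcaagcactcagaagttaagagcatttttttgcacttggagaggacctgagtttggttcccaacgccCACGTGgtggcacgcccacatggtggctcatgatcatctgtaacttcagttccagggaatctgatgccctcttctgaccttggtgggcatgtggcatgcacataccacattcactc
Psmb9 to Tap1, chr17:34187331-34187555, plus strand: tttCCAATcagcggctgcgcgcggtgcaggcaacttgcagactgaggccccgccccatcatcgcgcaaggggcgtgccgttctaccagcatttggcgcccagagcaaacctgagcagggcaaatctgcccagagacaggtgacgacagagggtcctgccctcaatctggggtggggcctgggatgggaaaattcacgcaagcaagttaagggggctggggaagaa
Psmb5 and Psmb6 each held 1 antioxidant core, Psmb10 held 1 E-box, the stretch between Psmb9 and Tap1 held 1 CCAAT, and the Psmb8 stretch held none of the 4 motifs. No interferon-stimulated core was found in these 5 stretches, which says only that these letters are not in these windows.

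The same 4 motifs were counted upstream of all 31 proteasome genes that the RefSeq table held. A proteasome gene counted if any of its starts matched, and 2 of them had more than 1 start. The shares of all genes are per promoter window, so the 2 units differ. The antioxidant core occurred in 5 of 31 (16.1%), against 10.2% of the 32817 promoter windows of all genes; the 5 genes were Psmb5, Psmb6, Psmc6, Psmd9 and Psmd12. The CCAAT sequence occurred in 13 of 31 (41.9%, against 33.8%). CACGTG occurred in 2 of 31 (6.45%, against 6.02%), Psmb10 and Psmd9. The interferon-stimulated core occurred in 3 of 31 (9.68%, against 2.97%), Psmb3, Psmd4 and Psmd9. Of the 5 genes with an antioxidant core 3 were called lower in Rptor-/- ISP cells, and of the 26 without it 17 were; the median log2 differences were −0.248 and −0.279. A match is a description of the sequence and not a measured binding site.

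In ISP cells, most subunit genes of the core and of the regulatory particle were lower in Rptor-/- cells than in WT cells. Of the 38 genes 25 were called lower and 0 higher. Over all 22180 genes, 6.57% were called lower and 5.87% higher, and among genes brighter than the median, which include 35 of the 38, 12.6% were called lower. The median difference of the 38 was −0.28, or 82.1% of the WT signal, against a median of −0.0039 over all genes, and 37 of 38 lay below 0, where 51.3% of all genes did. For 32 of 38 genes the Rptor-/- and WT arrays did not overlap, which held for 16.7% of all genes. The decreases were small for single genes and shared by many: the largest, of Psmd1, left 64.2% of the WT signal. In sorted bulk cells, less RNA per cell and fewer cells that express a gene cannot be told apart.

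**Figure D1:**
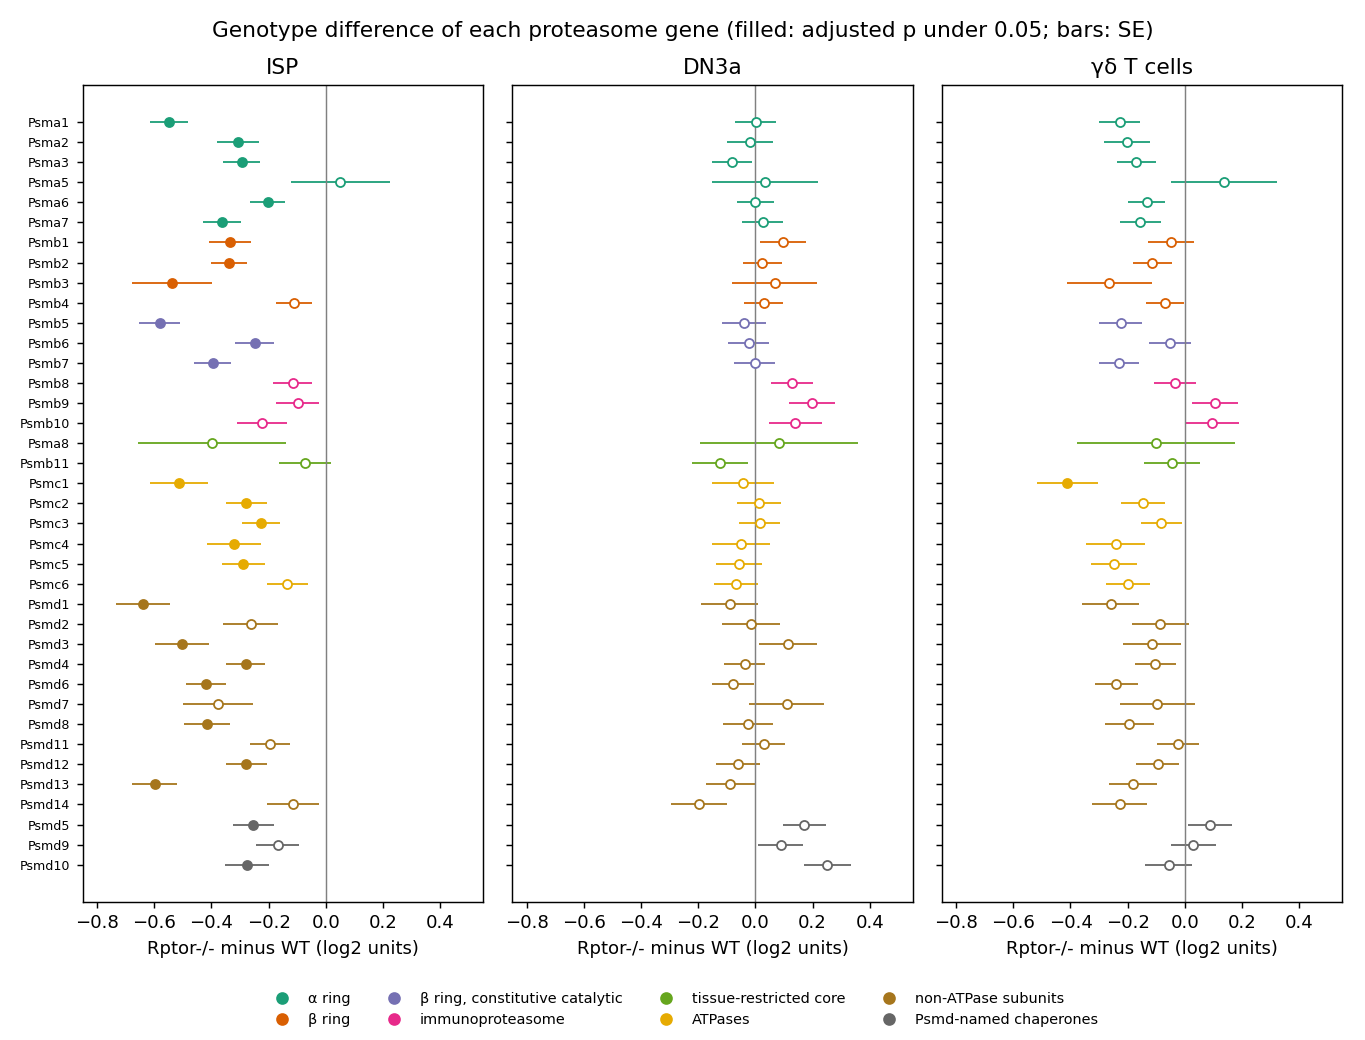
Log2 difference between Rptor-/- and WT arrays (x axis, log2 units) for each of the 38 proteasome genes (y axis), in ISP cells, DN3a cells and γδ T cells, with bars for the standard error of the limma fit and filled points for an adjusted p under 0.05. In ISP cells 25 points are filled and all of them lie left of 0, in DN3a cells none is filled, and in γδ T cells only Psmc1 is.

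In the α ring, 5 of 6 genes were lower in Rptor-/- ISP cells (Psma1, Psma2, Psma3, Psma6 and Psma7). Psma1 read 9.22, 9.10 and 9.05 on the 3 Rptor-/- arrays and 9.63, 9.70, 9.71 and 9.65 on the 4 WT arrays. Every Rptor-/- array lay below every WT array, and the difference of −0.55 (SE 0.07, limma adjusted p = 1.4e-05) left 68.4% of the WT signal. Psma7 read 10.59, 10.70 and 10.60 against 10.94, 11.02, 11.05 and 10.95, again without overlap (−0.36, SE 0.07, limma adjusted p = 0.00093). Psma3 read 9.61, 9.57 and 9.56 against 9.81, 9.78, 10.01 and 9.88 (−0.29, SE 0.06, limma adjusted p = 0.00368). Psma5, the exception, was dimmer than the median gene on these arrays, and its groups overlapped (0.05, SE 0.17).

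Of the 4 β-ring genes without a catalytic site, Psmb1, Psmb2 and Psmb3 were lower. Psmb2 read 9.82, 9.86 and 9.92 on Rptor-/- arrays and 10.27, 10.15, 10.14 and 10.25 on WT arrays (−0.34, SE 0.06, limma adjusted p = 0.00097). Psmb1 read 9.98, 10.02 and 9.86 against 10.21, 10.19, 10.44 and 10.31 (−0.34, SE 0.07, limma adjusted p = 0.00415). Neither gene's groups overlapped. Psmb3 had a larger difference (−0.54, SE 0.14, limma adjusted p = 0.0127) but a dim signal, 5.40, 5.47 and 5.31 against 5.64, 5.95, 6.35 and 5.80, and WT array 3 stood above the other WT arrays. Psmb4 differed by −0.11 (SE 0.06) and did not pass.

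All 3 constitutive catalytic genes were lower in Rptor-/- ISP cells. Psmb5, which carries the chymotrypsin-like site, read 9.98, 9.99 and 10.06 on Rptor-/- arrays and 10.56, 10.75, 10.55 and 10.51 on WT arrays. The groups were well apart, and the difference of −0.58 (SE 0.07, limma adjusted p = 1.5e-05) left 66.9% of the WT signal. Psmb7, with the trypsin-like site, read 9.97, 9.92 and 9.91 against 10.31, 10.34, 10.39 and 10.27 (−0.40, SE 0.07, limma adjusted p = 0.00033). Psmb6, with the caspase-like site, read 9.08, 8.9997 and 8.99 against 9.16, 9.32, 9.36 and 9.24 (−0.25, SE 0.07, limma adjusted p = 0.0187), the narrowest gap of the 3 genes.

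None of the 3 immunoproteasome genes passed the test in ISP cells. Psmb8, the counterpart of Psmb5, read 9.59, 9.68 and 9.74 on Rptor-/- arrays and 9.74, 9.84, 9.82 and 9.74 on WT arrays, a difference of −0.12 (SE 0.07, limma adjusted p = 0.383), with the highest Rptor-/- array just under the lowest WT arrays. Psmb9, the counterpart of Psmb6, read 10.71, 10.52 and 10.71 against 10.75, 10.68, 10.88 and 10.66, with overlapping groups (−0.10, SE 0.08, limma adjusted p = 0.551). Psmb10, the counterpart of Psmb7, read 9.58, 9.63 and 9.65 against 9.66, 9.90, 10.13 and 9.69 (−0.22, SE 0.09, limma adjusted p = 0.112); its WT arrays were spread over a wider range than its Rptor-/- arrays. All 3 values lay below 0, where 51.3% of all genes did. The arrays of Psmb8 and Psmb10 separated by genotype, as did those of 16.7% of all genes. Psmb10 passed when WT array 1 was left out (−0.28, limma adjusted p = 0.0404). A missed threshold thus does not show that these 3 genes were unchanged. The tissue-restricted genes were dimmer than the median gene and did not pass: Psma8, known from testis, differed by −0.40 (SE 0.26) and Psmb11, known from cortical thymic epithelium, by −0.07 (SE 0.09).

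In the ring of ATPases, 5 of 6 genes were lower in Rptor-/- ISP cells. Psmc1 read 9.23, 9.32 and 9.14 on Rptor-/- arrays and 9.82, 9.80, 9.73 and 9.64 on WT arrays, a difference of −0.51 (SE 0.10, limma adjusted p = 0.00142) with no overlap. Psmc2 read 8.58, 8.53 and 8.40 against 8.74, 8.85, 8.78 and 8.76 (−0.28, SE 0.07, limma adjusted p = 0.0127). Psmc5 read 9.72, 9.73 and 9.58 against 10.11, 9.94, 9.90 and 9.91 (−0.29, SE 0.08, limma adjusted p = 0.0135). For all 6 genes every Rptor-/- array lay below every WT array, including Psmc6, which did not pass (−0.13, SE 0.07). The arrays of 16.7% of all genes separated in either direction.

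Among the 11 non-ATPase subunits, 7 were lower (Psmd1, Psmd3, Psmd4, Psmd6, Psmd8, Psmd12 and Psmd13). Psmd1, a large scaffold of the base of the regulatory particle, read 8.23, 8.26 and 8.12 on Rptor-/- arrays and 8.92, 8.97, 8.72 and 8.77 on WT arrays (−0.64, SE 0.09, limma adjusted p = 8e-05). Psmd13, a subunit of the lid that sits on this base, read 7.13, 7.08 and 7.04 against 7.71, 7.71, 7.78 and 7.53 (−0.60, SE 0.08, limma adjusted p = 3.1e-05). Psmd6, another lid subunit, read 8.88, 8.95 and 8.83 against 9.25, 9.37, 9.33 and 9.28 (−0.42, SE 0.07, limma adjusted p = 0.00032). These 3 genes kept wide gaps between the genotypes. The ubiquitin receptor gene Psmd4 differed by −0.28 (SE 0.07, limma adjusted p = 0.00782). Psmd14, the lid's deubiquitinase, did not pass (−0.11, SE 0.09), nor did Psmd2, Psmd7 and Psmd11, which differed by −0.26, −0.38 and −0.20.

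The 3 Psmd-named genes Psmd5, Psmd9 and Psmd10 encode chaperones that help to assemble the base and are not part of the finished particle. Psmd5 read 6.32, 6.56 and 6.40 on Rptor-/- ISP arrays and 6.71, 6.64, 6.598 and 6.78 on WT arrays (−0.25, SE 0.07, limma adjusted p = 0.0206). Psmd10 read 7.94, 8.15 and 7.97 against 8.20, 8.35, 8.43 and 8.20 (−0.27, SE 0.08, limma adjusted p = 0.0215). Both were lower without overlap, and Psmd9 did not pass (−0.17, SE 0.07).

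By particle, 11 of 13 constitutive core genes (median −0.34) and 12 of 17 regulatory particle genes (median −0.29) were lower in Rptor-/- ISP cells. The median deviation of the core genes from their WT means was −0.31, −0.29 and −0.39 on the 3 Rptor-/- arrays, and that of the regulatory genes −0.25, −0.29 and −0.39; WT arrays lay between −0.06 and 0.08 for both. Each Rptor-/- array thus carried the shift, with the lowest values on array 3. Without Rptor-/- array 3 the number of genes called fell to 15. Of the 25 calls 15 held with each array left out, among them those of Psma1, Psmb5, Psmb7, Psmc1, Psmd1 and Psmd13. The other 10 were lost without Rptor-/- array 3: Psma2 (−0.25), Psma6 (−0.22), Psmb3 (−0.50), Psmb6 (−0.23), Psmc2 (−0.22), Psmc3 (−0.24), Psmc4 (−0.20), Psmc5 (−0.24), Psmd5 (−0.24) and Psmd10 (−0.25). Psma6 was also lost without any other array (−0.22 to −0.18). Psmb6 was lost without Rptor-/- array 2 or WT arrays 2 or 3 (−0.24 to −0.22), Psmc3 without Rptor-/- array 2 or WT arrays 1 or 2 (−0.21 to −0.19), and Psmc4 without WT arrays 1 or 2 (−0.32 and −0.28). Psmc5 was lost without WT array 1 (−0.24), Psmd5 without Rptor-/- array 1 or WT array 4 (−0.20 and −0.22), and Psmd10 without Rptor-/- array 1 or WT arrays 2 or 3 (−0.25 to −0.23). Psmd2 passed without WT array 3 or 4 (−0.32 each), and Psmd7 without Rptor-/- array 1 (−0.44) or WT array 3 or 4 (−0.45 each). Quantile normalization across all 19 arrays lowered the count to 13 and the median to −0.19, and a fit of the ISP arrays alone gave 16.

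**Figure D2:**
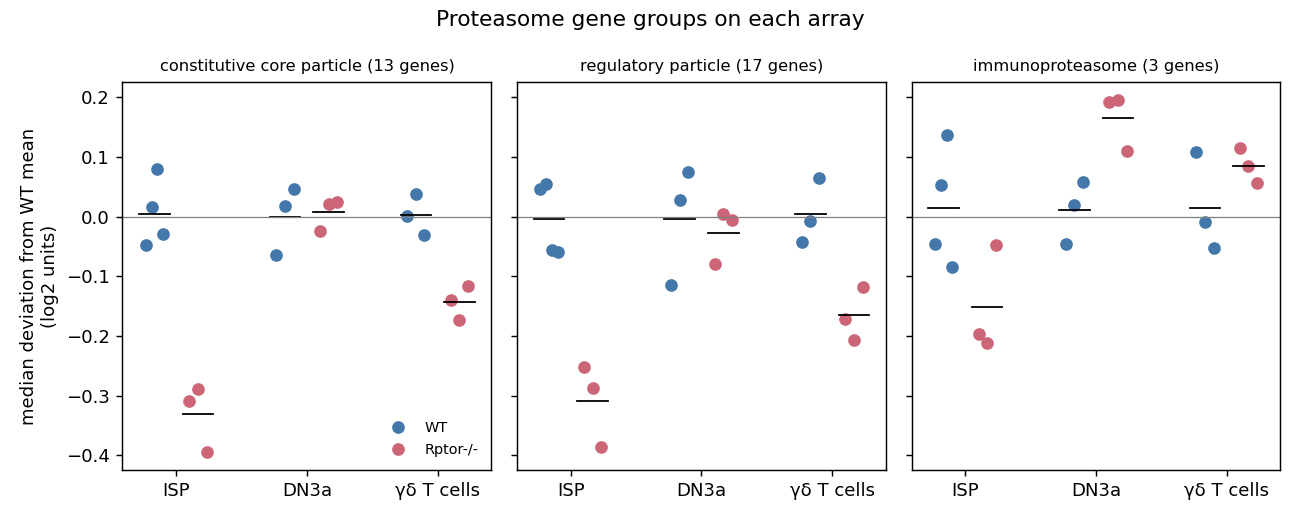
Median deviation from the WT mean (y axis, log2 units) of 13 constitutive core genes, 17 regulatory particle genes and 3 immunoproteasome genes on each array, by population (x axis); each point is 1 array and each horizontal line a group mean. Rptor-/- ISP arrays lie at or below −0.25 for the core and the regulatory particle, Rptor-/- γδ arrays lie between −0.21 and −0.12 for both, and Rptor-/- DN3a arrays lie among the WT arrays for both.

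Genes that serve the proteasome without being subunits were also measured in ISP cells. All 5 core assembly factors were lower, against 6.57% of all genes: the α-ring chaperones Psmg1 to Psmg4 and Pomp, the maturation factor of the β ring. Psmg1 read 7.64, 7.58 and 7.45 on Rptor-/- arrays and 8.22, 8.19, 8.26 and 8.04 on WT arrays (−0.62, SE 0.09, limma adjusted p = 7.5e-05). Psmg3 read 7.66, 7.58 and 7.47 against 8.18, 8.05, 8.44 and 8.09 (−0.62, SE 0.10, limma adjusted p = 0.00032). For each of the 5 every Rptor-/- array lay below every WT array, where the arrays of 16.7% of all genes separated in either direction. The median of the 5 differences was −0.62.

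Of the 5 activators and inhibitors measured, only Psme3, which encodes a nuclear activator of the core, passed in ISP cells (−0.46, SE 0.08, limma adjusted p = 0.0006); Psme1 and Psme2, the interferon-inducible activators, differed by −0.09 and −0.07 and did not. Of 9 receptors and associated factors, 4 were lower, against 6.57% of all genes. Among them were Rad23b (−0.62, SE 0.06, limma adjusted p = 3.1e-06) and Ubqln4 (−0.50, SE 0.08, limma adjusted p = 0.00033), which carry ubiquitin-tagged proteins to the proteasome. The ubiquitin ligase gene Ube3c was higher (0.26, SE 0.07, limma adjusted p = 0.0242), a call lost without Rptor-/- arrays 2 or 3 (0.21 and 0.22) or WT arrays 2 or 3 (0.24 each). Of 3 genes for factors that control proteasome transcription, Nfe2l1 did not pass (0.13, SE 0.08). Ngly1, whose enzyme processes the Nfe2l1 protein into its active form, was higher: it read 8.27, 8.11 and 8.16 against 7.62, 7.70, 7.56 and 7.65 (0.55, SE 0.07, limma adjusted p = 2.2e-05). Nfe2l2, which encodes a related factor of the antioxidant response, was lower (−0.28, SE 0.09, limma adjusted p = 0.041). Its groups met, since Rptor-/- array 3 and WT array 1 both read 8.20. The call of Nfe2l2 was lost without Rptor-/- arrays 1 or 2 (−0.19 and −0.28) or WT arrays 2, 3 or 4 (−0.29, −0.27 and −0.27).

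Genes of the class I antigen pathway, which uses the peptides of the proteasome, did not share the decrease in ISP cells: 2 of 7 were higher and 0 lower, where 5.87% of all genes were higher. Of the 7 values 5 lay above 0. Tap2 (−0.15) and Irf1 (−0.07) lay below it, as did 51.3% of all genes. Tap1, the peptide transporter gene that starts 225 bases from Psmb9, read 7.44, 7.40 and 7.64 on Rptor-/- arrays and 7.26, 7.07, 7.23 and 7.23 on WT arrays (0.30, SE 0.07, limma adjusted p = 0.00999). Nlrc5, which encodes an activator of class I genes, was dim on these arrays, where the median gene lay at 4.02. It read 4.47, 4.50 and 5.09 against 4.20, 4.33, 3.64 and 4.20 (0.59, SE 0.16, limma adjusted p = 0.0168). Both sets of arrays were separate by genotype, but Rptor-/- array 3 was the highest for both genes. Without it neither call held (0.22 for Tap1, 0.39 for Nlrc5), and that of Nlrc5 was also lost without WT array 3 (0.44).

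**Figure D3:**
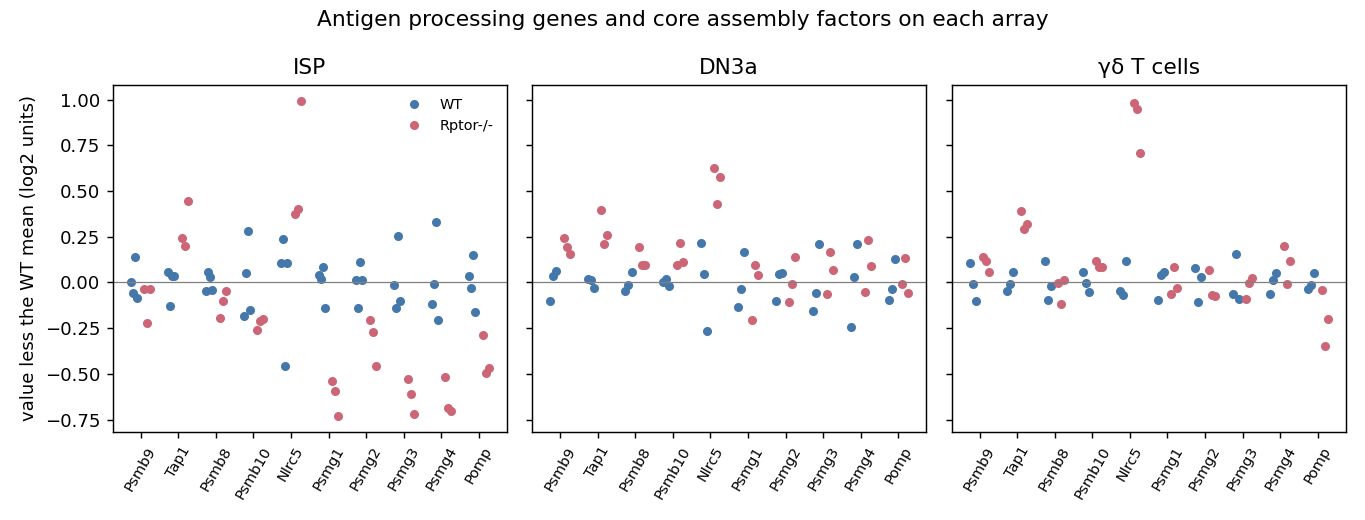
Log2 value of each array less the WT mean of its population (y axis, log2 units) for 3 immunoproteasome genes, Tap1, Nlrc5 and the 5 core assembly factors (x axis), in ISP cells, DN3a cells and γδ T cells; each point is 1 array. The assembly factors lie below 0 on all 3 Rptor-/- ISP arrays, and Tap1 and Nlrc5 lie above 0 on every Rptor-/- array of the 3 populations.

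Other genes moved together with the ISP result. The heat shock genes Hspa1a and Hsph1 differed by −4.74 and −1.696 in Rptor-/- ISP cells (limma adjusted p = 1.4e-05 and 2.4e-06). Hspa1a had the lowest difference of all genes there, and its WT ISP arrays were spread from 7.26 to 9.99. Hspa1a differed by 2.07 and 1.49 in DN3a and γδ T cells and Hsph1 by 0.07 in each, and neither gene passed there. Of 5 measured markers of DN3 cells 4 were higher in Rptor-/- ISP cells, against 5.87% of all genes. The log2 of the summed signal of these markers was 10.8 to 10.9 on Rptor-/- arrays and 10.1 to 10.3 on WT arrays. The sum of 3 γδ markers was lower, 7.25 to 7.36 against 8.84 to 9.18, with 1 of 3 called (Id3, −2.29). Only Id3 lay below 0 among these 3: Sox13 differed by 0.14, and Cd44 read 3.72 on every ISP array. The sum of 4 NK cell markers was higher, 6.03 to 6.23 against 5.89 to 6.02, with none called. The part of these genes in the proteasome result was not tested.

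In DN3a cells no proteasome gene differed by genotype at the threshold. None of 38 was called, where 0.983% of all genes were (218 of 22180), and 3 had an unadjusted limma p under 0.05 (Psmb9, Psmd5 and Psmd10), a share no larger than the 10.6% of all genes. The median difference was 0.0008 over the 38 genes and 0.0112 over all genes. Differences ran from −0.20 for Psmd14 to 0.25 for Psmd10. The arrays of 7 of the 38 genes separated by genotype, as did those of 17.1% of all genes. Psmb5, for example, read 11.31, 11.41 and 11.39 on Rptor-/- arrays and 11.35, 11.43 and 11.45 on WT arrays (−0.04, SE 0.08).

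The immunoproteasome genes lay higher on all Rptor-/- DN3a arrays, without passing the test. Psmb8 read 10.60, 10.51 and 10.51 on Rptor-/- arrays and 10.37, 10.40 and 10.47 on WT arrays (0.13, SE 0.07, limma adjusted p = 0.58). Psmb9 read 11.16, 11.11 and 11.07 against 10.81, 10.95 and 10.98 (0.20, SE 0.08, limma adjusted p = 0.366). Psmb10 read 11.44, 11.56 and 11.46 against 11.35, 11.37 and 11.33 (0.14, SE 0.09, limma adjusted p = 0.666). The groups of all 3 were separate. Of the 7 class I pathway genes 6 were also separate, against 17.1% of all genes, and 6 lay above 0, where 53.8% of all genes did. These were not the same 6 genes: Irf1 was separate but lower (−0.11), and Erap1 lay above 0 with overlapping groups (0.08). The median was 0.31, with 0 calls by limma (5 of 7 at an unadjusted p under 0.05, against 10.6% of all genes). Tap1, singled out here after its values were seen, read 11.64, 11.45 and 11.50 against 11.26, 11.26 and 11.21. Summed marker levels of 5 other lists were separate as well, all higher on Rptor-/- DN3a arrays (log2 of the summed signal). The 5 DN3 markers lay at 13.8 to 13.9 against 13.4 on WT arrays, with 2 called higher, and the 3 γδ markers at 9.10 to 9.12 against 8.74 to 8.96, with Sox13 called higher. The 6 myeloid markers lay at 8.59 to 9.03 against 8.29 to 8.52, with Lyz2 called higher (1.04), the 5 thymic stroma markers at 10.1 to 10.2 against 9.64 to 9.86, with Epcam called higher (0.67), and the 4 B cell markers at 9.42 to 9.62 against 9.27 to 9.35, with none called. A sum follows its brightest genes: 4 of 6 myeloid and 3 of 5 thymic stroma markers lay below 0 (medians −0.08 and −0.02). Above 0 lay 5 of 5 DN3 markers, 2 of 3 γδ markers and 3 of 4 B cell markers. The part of these genes in the DN3a values was not tested. None of the assembly factors passed in DN3a cells, and their values ran from −0.02 to 0.09.

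In γδ T cells the subunit genes leaned lower in Rptor-/- cells, and 1 gene passed. Psmc1 read 9.83, 9.58 and 9.88 on Rptor-/- arrays and 9.996, 10.17 and 10.36 on WT arrays, a difference of −0.41 (SE 0.11, limma adjusted p = 0.0419) with no overlap. It was the only one of 38 called, where 1.28% of all genes were called lower, and its call was lost without Rptor-/- arrays 1 (−0.44) or 2 (−0.32) or WT arrays 2 (−0.41) or 3 (−0.32). An unadjusted limma p under 0.05 was found for 15 of 38 genes, all of them lower, and for 16.3% of all genes in either direction. Of the 38 values 33 lay below 0, where 48.8% of all genes did, with a median of −0.11 against 0.0042 over all genes. For 22 of 38 genes the arrays separated by genotype, against 21.0% of all genes.

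By group, the constitutive core had 12 of 13 values below 0 in γδ T cells (median −0.16) and the regulatory particle 17 of 17 (median −0.18). Psmb5 read 11.29, 11.47 and 11.35 on Rptor-/- arrays and 11.65, 11.62 and 11.52 on WT arrays (−0.23, SE 0.08, limma adjusted p = 0.127). Psmb7 read 10.49, 10.58 and 10.51 against 10.78, 10.81 and 10.68 (−0.23, SE 0.07, limma adjusted p = 0.0869), and Psmb6 differed by −0.05 (SE 0.07). Psmb5 and Psmb7 were separate by genotype, at 85.6% and 85.2% of the WT signal, but neither passed. Of the immunoproteasome genes, Psmb8 read 10.28, 10.16 and 10.29 against 10.40, 10.19 and 10.26 (−0.04, SE 0.07), Psmb9 11.00, 10.98 and 10.92 against 10.97, 10.85 and 10.76 (0.10, SE 0.08), and Psmb10 11.44, 11.41 and 11.41 against 11.38, 11.32 and 11.27 (0.09, SE 0.09). None of the 3 passed, and only for Psmb10 were the groups separate.

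Genes of the class I pathway lay on the other side in γδ T cells: all 7 values were above 0 and 2 were called, where 1.77% of all genes were called higher. Tap1 was higher in Rptor-/- cells, at 11.77, 11.67 and 11.69 against 11.33, 11.36 and 11.44 (0.33, SE 0.08, limma adjusted p = 0.0247), a call that held only without WT array 3 among the 6 fits that left out an array (0.30 to 0.35 in the other 5). Nlrc5 was higher at 10.11, 10.08 and 9.84 against 9.08, 9.06 and 9.25 (0.88, SE 0.17, limma adjusted p = 0.0059), a call kept with each γδ array left out. No assembly factor passed, with values from −0.20 to 0.10. Of 4 measured ISP markers 3 were lower in Rptor-/- γδ T cells (Cd8a, Cd8b1 and the proliferation gene Mki67), against 1.28% of all genes. The log2 of the summed signal of the 4 was 10.6 to 10.9 on Rptor-/- and 11.4 to 11.7 on WT arrays. The summed DN3 markers were higher (10.4 to 10.8 against 10.2 to 10.3, 1 of 5 called), as were the thymic stroma markers (9.27 to 9.34 against 9.19 to 9.23, none called), and the mature αβ T cell markers were lower in sum (11.8 to 11.9 against 12.0 to 12.1, with Foxp3 called higher). Of the 5 thymic stroma markers 3 lay below 0 (median −0.045). The part of these genes in the proteasome values was not tested.

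The genotype effects of the populations were then compared directly. Interaction terms with ISP cells cross the 2 sets of array medians, although each effect was taken within 1 of them. Whether the 2 sets were normalized apart is not stated. The decrease in ISP cells exceeded the effect in DN3a cells for 12 of 38 genes, where 4.12% of all genes had a lower effect in ISP cells: Psma1, Psma7, Psmb1, Psmb2, Psmb5, Psmb7, Psmd1, Psmd3, Psmd5, Psmd6, Psmd10 and Psmd13. With genes dimmer than the median left out, 17 of 35 proteasome genes and 1253 of all 11090 had a lower effect in ISP cells. Of the 38 interaction values 35 lay below 0, where 53.6% of all genes did (median −0.29). For Psma1 the effects differed by −0.55 (SE 0.10, limma adjusted p = 0.00192) and for Psmb5 by −0.54 (SE 0.10, limma adjusted p = 0.00335). Calls of Psma1, Psmb5, Psmd3, Psmd10 and Psmd13 held with each array left out, and that of Psmd6 (−0.34, limma adjusted p = 0.0491) with none; without DN3a WT array 1 the count was 6, and after quantile normalization 5. The immunoproteasome genes differed by −0.24 to −0.36, with an unadjusted limma p under 0.05 for 3 of 3 (19.2% of all genes) and none past the threshold; the median over the 3 was −0.30 and over the 30 genes of the constitutive core and the regulatory particle −0.29.

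Between ISP and γδ T cells the effect differed for Psmd13 alone (−0.42, SE 0.12, limma adjusted p = 0.0375), where 3.63% of all genes had a lower effect in ISP cells, and the call was lost in 10 of 13 fits that left out an array (−0.44 to −0.38). With genes dimmer than the median left out, 4 of 35 proteasome genes and 1044 of all 11090 had a lower effect in ISP cells. Of the 38 values 36 lay below 0, where 50.8% of all genes did. Between γδ T cells and DN3a cells no effect differed (0 of 38 by limma, with 4 at an unadjusted p under 0.05, as for 9.30% of all genes), where 0.600% of all genes were called. Again 36 of the 38 values lay below 0, against 52.5% of all genes. For Psmc1, called in γδ T cells only, the effects differed by −0.37 (SE 0.15, limma adjusted p = 0.444), so a difference between these populations was not established. The assembly factors had lower effects in ISP cells than in DN3a cells for 4 of 5 genes (Psmg1, Psmg3, Psmg4 and Pomp), against 4.12% of all genes. Compared with γδ T cells this held for 3 of 5 (Psmg1, Psmg3 and Psmg4), against 3.63% of all genes. Of the 7 class I pathway genes, Tap2 alone had a lower effect in ISP cells than in DN3a cells (−0.51, SE 0.15, limma adjusted p = 0.0436), where 4.12% of all genes did.

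The balance of catalytic subunit genes was examined within each array, as the log2 signal of an immunoproteasome gene minus that of its constitutive counterpart. The level of such a difference depends on the probes, and only its change with genotype is read. These are RNA signals and do not show which subunits entered the particle during assembly. In ISP cells Psmb8 minus Psmb5 was −0.39, −0.31 and −0.32 on Rptor-/- arrays and −0.82, −0.90, −0.73 and −0.77 on WT arrays. The groups were separate, with a change of 0.47 towards Psmb8 (means −0.34 ± 0.05, SD, n = 3, and −0.81 ± 0.08, SD, n = 4; exact two-sided permutation p = 0.0571, the smallest that 3 arrays against 4 allow). Psmb9 minus Psmb6 changed by 0.15 (exact permutation p = 0.114) and Psmb10 minus Psmb7 by 0.17 (exact permutation p = 0.171), both with overlap.

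In DN3a cells the 3 pairs changed by 0.17, 0.22 and 0.14, and in γδ T cells by 0.19, 0.16 and 0.33, in the order Psmb8, Psmb9 and Psmb10. Psmb10 minus Psmb7 in γδ T cells was 0.95, 0.83 and 0.90 on Rptor-/- arrays and 0.60, 0.51 and 0.59 on WT arrays, with no overlap (exact permutation p = 0.1, the smallest that 3 against 3 allow). In all 9 tests the immunoproteasome gene was higher relative to its counterpart in Rptor-/- cells, and the groups were separate in 4 of 9. The share of other gene pairs that do so was not counted. For single genes the groups were separate for 16.7% of all genes in ISP cells, 17.1% in DN3a cells and 21.0% in γδ T cells. The 3 pairs of a population were read on the same arrays, so the 9 tests are not independent. The 3 immunoproteasome genes themselves lay below 0 in ISP cells. After Benjamini-Hochberg adjustment over the 9 tests p ran from 0.206 to 0.3. None of these exact tests could reach 0.05 with so few arrays, so they decide nothing either way, and the sizes and spreads stand as a description.

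**Figure D4:**
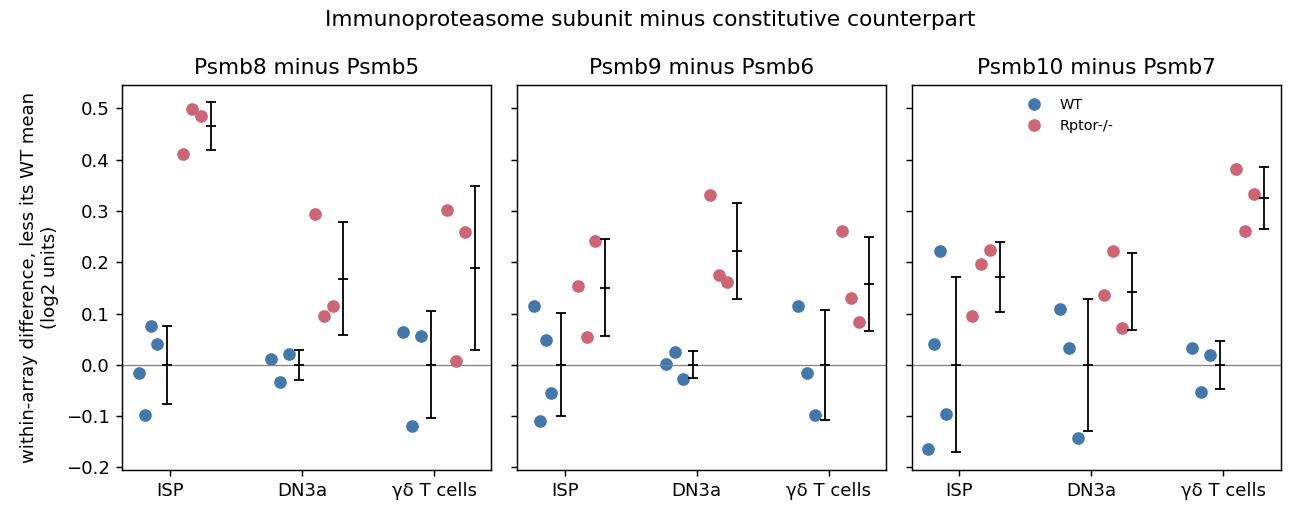
Within-array log2 difference between an immunoproteasome gene and its constitutive counterpart, less its WT mean (y axis, log2 units), by population (x axis) for 3 pairs; each point is 1 array and the black bars give the group mean ± SD. The largest change is that of Psmb8 minus Psmb5 in ISP cells, 0.47, and all 9 Rptor-/- means lie above 0.

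Finally, WT γδ T cells were compared with WT DN3a cells, whose array medians lay in the same range (6.03 to 6.13). The aim was to see how the subunit genes differ between populations without the mutation. Of 38 genes 5 were higher and 5 lower in γδ T cells, where 12.7% of all genes were higher and 12.3% lower, so the share of proteasome genes was near the background. The arrays of 18 genes separated by population, against 38.9% of all genes. No gene of the constitutive core or the immunoproteasome passed. Psmd8, a lid subunit, was higher at 11.33, 11.17 and 11.10 in γδ T cells against 10.56, 10.77 and 10.78 in DN3a cells (0.50, SE 0.09, limma adjusted p = 0.00016). Psmd13 was higher at 8.81, 8.89 and 8.82 against 8.33, 8.57 and 8.63 (0.33, SE 0.08, limma adjusted p = 0.00536). Both were separate by population. Psmc3 (0.20), Psmd9 (0.25) and Psmd10 (0.23) were also higher.

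On the lower side in WT γδ T cells, Psmd3 read 9.82, 9.83 and 10.06 against 10.27, 10.27 and 10.35 in DN3a cells (−0.40, SE 0.10, limma adjusted p = 0.00544) and Psmc5 read 9.91, 9.86 and 9.98 against 10.18, 10.34 and 10.21 (−0.32, SE 0.08, limma adjusted p = 0.0046). Psmd7 read 10.26, 10.22 and 10.44 against 10.63, 10.79 and 10.82 (−0.44, SE 0.13, limma adjusted p = 0.0168), and Psmd12 differed by −0.24. All 4 were subunits of the regulatory particle with separate groups, so that genes of the same particle lay on both sides of 0. Psmb11, the fifth, was dim in both populations (−0.29, SE 0.10, limma adjusted p = 0.0343). Calls held with each array left out for 4 of the 10 genes, Psmc5, Psmd3, Psmd8 and Psmd13; those of Psmc3 (0.16 to 0.23) and Psmd10 (0.21 to 0.26) were lost with any array left out. That of Psmd9 was lost in 5 of 6 such fits (0.21 to 0.26), that of Psmd7 without DN3a arrays 2 or 3 or γδ arrays 1 or 2 (−0.42 to −0.40), that of Psmd12 without DN3a array 3 or γδ array 1 (−0.19 and −0.16), and that of Psmb11 without arrays 1 or 2 of either population (−0.29 to −0.24).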

How the data were processed

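Expression was deposited on the log2 scale, a value for each probe set and array, which the submitters' processing notes attribute to RMA in Partek 6.6; the sources used here do not state which arrays were normalized together. Each array received 12 ng of total RNA, amplified before labelling, per the labels' protocols. The platform annotation gave a single symbol for 23521 of 41345 probe sets, several for 1814 and no name for 16010, and symbols were updated by Entrez ID for 23328 of them from a RefSeq table. A gene was read from its probe set with the highest mean over 19 arrays, with no filter on dim signal.

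A single limma model (version 3.58.1, R 4.3.3) of 6 group means over 19 arrays was used for all comparisons, with Benjamini-Hochberg adjustment over 22180 genes; it was tested on simulated data. Catalytic pairs were compared by exact two-sided permutation in scipy 1.17.1, and motifs were searched by letters on both strands.

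The genes and lists were chosen with earlier results of these data known. Named with array values were the catalytic genes, in each group of subunits up to 3 genes per direction with the smallest p past the threshold, up to 2 per direction in each interaction, and up to 2 in each list of other genes; further genes are given by log2 difference. Same-numbered arrays of the 2 genotypes did not deviate together in every pair, so the numbers were not taken as pairs. Alternatives were array centring, quantile normalization across 19 arrays, fitting only the arrays compared, averaging probe sets, a variance trend, leaving out genes dimmer than the median, a replicate block and leaving out each array.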

Additional observations from a re-analysis of the deposited data

Results flagged for a closer look

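Among the WT ISP arrays, which number 4, 48 genes were tested for an array far from the other 3 by Dixon's test of the gap over the range, and chance flags about 1 in 20 such groups. Psmc5 read 10.11 on array 1 and 9.90 to 9.94 on the others. Psmd4 read 9.16 on array 1 and 8.998 to 9.02 on the others. Tap1 read 7.07 on array 2 and 7.23 to 7.26 on the others. For Psmc5 the difference in ISP cells was −0.29 with array 1 and −0.24 without it (limma adjusted p = 0.0503).

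The genotype effect in ISP cells differed from that in DN3a cells, by the limma interaction term, for 12 genes. The differences between the effects were −0.55 for Psma1, −0.39 for Psma7, −0.43 for Psmb1, −0.36 for Psmb2, −0.54 for Psmb5, −0.39 for Psmb7, −0.55 for Psmd1, −0.62 for Psmd3, −0.42 for Psmd5, −0.34 for Psmd6, −0.53 for Psmd10 and −0.51 for Psmd13. Psmd13 also differed between ISP cells and γδ T cells (−0.42).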

How the results depend on the processing

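Of 38 proteasome genes, 25 were called in ISP cells, 13 after quantile normalization across 19 arrays, 16 with only the ISP arrays fitted, and 15 to 25 with 1 array left out; 11 calls were kept in every setting. In γδ T cells 1 was called, 0 with arrays centred or only the γδ arrays fitted, 6 after quantile normalization, 5 with a variance trend, 4 without dim genes, and 0 to 1 with 1 array left out. The effects of ISP and DN3a cells differed for 12 genes, 5 after quantile normalization and 6 to 14 with 1 array left out. Those of ISP and γδ T cells differed for 1 gene, 4 with arrays centred, 4 with a variance trend, 4 without dim genes, 0 after quantile normalization and 0 to 2 with 1 array left out. WT γδ and DN3a cells differed for 10 genes, and for 4 to 7 with 1 array left out. In DN3a cells, and between the effects of γδ and DN3a cells, 0 were called by limma under each alternative run (3 and 4 at an unadjusted p under 0.05 in the values as deposited). No called gene and no catalytic pair changed direction under the alternatives run. Medians near 0 did: that of DN3a cells (0.0008) lay between −0.0424 and 0.0257, and that of the WT populations (0.0362) was −0.0171 without DN3a WT array 1. Leaving out an array leaves fewer samples; the cause of the other changes was not tested.

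The correlation of deviations between same-numbered arrays of the 2 genotypes was −0.104 to 0.242 over 9 pairs. With the replicate number as a block, 23 genes were called in ISP cells, 0 in DN3a cells and 1 in γδ T cells; 10, 1 and 0 interactions were called (ISP against DN3a, ISP against γδ, γδ against DN3a), and 9 genes differed between WT populations, the last added after the data were seen.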

Other observations

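Between the WT populations 10 of 29 partner genes of the proteasome were called, 2 higher and 8 lower in γδ T cells, where 12.7% of all genes were called higher and 12.3% lower; whether the partner genes differ from other genes in this was not tested. The assembly chaperone genes Psmg2 and Psmg4 were lower in WT γδ T cells than in WT DN3a cells (−0.57 and −0.49), while Psmg1, Psmg3 and Pomp did not pass. Psme3, the nuclear activator gene, was lower (−0.30), and so were the deubiquitinase genes Uchl5 (−0.53) and Usp14 (−0.36) and the ligase gene Ube3c (−0.26). Ngly1 was lower by limma too (−0.37). In the class I pathway, Nlrc5 (1.06) and B2m (0.25) were higher and Tap2 (−0.52) was lower. These genes were named after their values were seen.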
